A study of Mus musculus with 4 samples.

Results

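The Ms4a genes encode small membrane proteins of immune cells and lie side by side on mouse chromosome 19. Their expression was compared in Langerhans cells, the dendritic cells of the epidermis, between mice deficient for exon 2 of the gene for AhR, the aryl hydrocarbon receptor (AhR-deficient, 2 arrays), and C57BL/6 mice as wild-type (2 arrays). The members described were Ms4a4b, Ms4a4c, Ms4a4d, Ms4a6b, Ms4a6c, Ms4a6d and Ms4a7, taken with every probe set that the platform annotation gives to 1 of these genes alone. This gave 11 probe sets for 7 genes, of 22626 probe sets and 12393 genes measured in all. The family was picked because Ms4a4b had higher values in AhR-deficient cells, so the differences between the genotypes below are a description of these arrays.

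The cells of both genotypes came from ear epidermis of untreated mice, spent 16 hours in culture without any added stimulus named in the labels, and were then sorted as living MHC class II-positive cells from a low-density fraction. The labels call the samples biological replicates, without naming the mutant line or the number of mice behind each sample. The p-values therefore measure the spread between these samples. Values are log2 signals from Affymetrix MOE430A arrays after RMA, a method that brings the arrays to 1 common distribution and combines the probes of each set into a single value. All differences are AhR-deficient minus wild-type. SE is the moderated standard error of limma, which fits a linear model to each probe set and moderates the variances across all of them.

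Ahr itself had 8.55 and 8.60 in AhR-deficient cells, against 7.61 and 8.23 in wild-type cells, with its brighter probe set; no source used here places that probe set in exon 2, so the value does not check the genotype. Over all probe sets wild-type replicate 2 correlated more closely with AhR-deficient replicate 2 (r = 0.989) than with wild-type replicate 1 (r = 0.987), so results with each array left out are given below.

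MS4A proteins (membrane-spanning 4-domains, subfamily A) cross the cell membrane several times and act as partners of other receptors. The best known are Ms4a1, the B cell antigen CD20, and Ms4a2, the beta chain of the high-affinity IgE receptor of mast cells. Ms4a4b is known from mouse T cells, where its protein restrains proliferation and associates with the costimulatory receptor GITR, while Ms4a7 and Ms4a6d are known from monocytes and macrophages.

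The RefSeq promoter table (GRCm38.p6) held 7 windows for 6 of the 7 members, and in each the 250 bases before the start were read. It held no window for Ms4a6d. Paralogues in 2 pairs shared long stretches, and they are shown because the members of each pair did not have the same values on the arrays. The first pair is Ms4a4b (chr19:11443308-11443557, plus strand) and Ms4a4c (chr19:11407411-11407660, plus strand), given 5′ to 3′ with capitals marking runs of at least 10 aligned bases that are identical in both.
Ms4a4b: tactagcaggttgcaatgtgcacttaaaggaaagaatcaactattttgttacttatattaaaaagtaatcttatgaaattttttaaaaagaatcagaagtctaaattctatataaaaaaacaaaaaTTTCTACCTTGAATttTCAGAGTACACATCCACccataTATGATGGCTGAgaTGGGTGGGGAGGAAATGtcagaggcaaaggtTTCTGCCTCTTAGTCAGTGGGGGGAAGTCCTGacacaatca
Ms4a4c: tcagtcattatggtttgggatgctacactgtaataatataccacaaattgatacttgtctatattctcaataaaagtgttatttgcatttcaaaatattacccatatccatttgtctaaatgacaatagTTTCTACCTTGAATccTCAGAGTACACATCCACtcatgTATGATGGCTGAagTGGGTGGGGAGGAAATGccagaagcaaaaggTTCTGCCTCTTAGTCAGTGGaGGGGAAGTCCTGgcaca
In a local alignment 181 of 252 columns (71.8%) were identical, and the shared runs lay in the part nearest the start. The second pair is Ms4a6b (chr19:11518309-11518558, plus strand) and Ms4a6c (chr19:11469118-11469367, plus strand), with capitals marking the same kind of run.
Ms4a6b: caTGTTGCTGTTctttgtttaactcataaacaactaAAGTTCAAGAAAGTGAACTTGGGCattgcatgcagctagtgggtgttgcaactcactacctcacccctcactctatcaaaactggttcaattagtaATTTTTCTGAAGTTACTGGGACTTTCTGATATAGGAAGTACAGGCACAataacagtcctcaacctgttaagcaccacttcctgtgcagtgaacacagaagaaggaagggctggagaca
Ms4a6c: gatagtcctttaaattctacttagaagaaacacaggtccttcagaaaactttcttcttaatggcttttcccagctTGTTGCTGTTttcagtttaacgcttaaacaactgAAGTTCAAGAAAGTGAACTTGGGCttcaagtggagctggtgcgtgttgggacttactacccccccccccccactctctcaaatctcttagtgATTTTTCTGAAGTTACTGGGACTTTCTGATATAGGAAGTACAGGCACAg
Here 149 of 182 aligned columns (81.9%) were identical, and no other pairing of the 7 windows held a shared run of that length.

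The same windows were searched on both strands for the letters GCGTG, the core that the AhR and Arnt pair binds, AANNGAAA, the core that interferon regulatory factors recognise, and GAGGAAGT, a sequence bound by the myeloid factor PU.1. GCGTG occurred in 1 window, that of Ms4a6c, beginning 101 bases before the start, and it occurs in 28.2% of all 32851 windows of this length. AANNGAAA occurred in 4 of the 7 windows, those of Ms4a4b, Ms4a4d and Ms4a6c and 1 of those of Ms4a7, and it occurs in 21.3% of all windows. GAGGAAGT occurred in 0 of the 7 windows, and in 2.44% of all windows. Ms4a6d, which had no window, was not searched. These are matches of letters and do not show binding.

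Ms4a6d and Ms4a4b were the members with differences of more than 2-fold. Ms4a6d, a gene of macrophages, had 9.83 and 8.96 in AhR-deficient cells, against 8.31 and 7.21 in wild-type cells, with probe set 1419599_s_at. The lower AhR-deficient value exceeded the higher wild-type value, but the arrays of a genotype also lay well apart from each other. The difference was 1.63 (SE 0.48), or 3.10-fold.

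A further Ms4a6d probe set, 1419598_at, had 7.25 and 6.60 in AhR-deficient cells, against 5.65 and 4.84 in wild-type cells. It ordered the 4 arrays in the same way, with AhR-deficient replicate 1 highest and wild-type replicate 2 lowest. Its difference was 1.68 (SE 0.36), or 3.21-fold. The last Ms4a6d probe set, 1449539_at, had 3.20 and 3.22 in AhR-deficient cells, against 3.25 and 3.11 in wild-type cells. These values overlapped and lay far below the arrays' 25th percentiles, which ranged from 4.54 to 4.57.

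Ms4a4b, known from T cells, had 6.13 and 5.72 in AhR-deficient cells, against 4.47 and 4.26 in wild-type cells, with probe set 1423467_at. The genotypes did not overlap, and both wild-type values lay below the 25th percentile of their own arrays. The difference was 1.56 (SE 0.17), or 2.94-fold. Signals this low may understate a change. The difference was 1.07 when 16 was added on the linear scale, a step that shrinks differences at low signals. Its other probe set, 1425325_at, was dim throughout, with 3.82 and 3.85 in AhR-deficient cells, against 3.77 and 3.79 in wild-type cells, and differed by 0.06 (SE 0.07).

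By size of difference, from the highest value down, the 3 probe sets with differences above 2-fold stood at rank 9 (Ms4a6d, 1419598_at), rank 13 (Ms4a6d, 1419599_s_at) and rank 16 (Ms4a4b, 1423467_at) of the 22626 probe sets. Of all probe sets, 0.393% were at least 2-fold higher without overlap. Ms4a4b had the tighter replicates of the 2 genes, with an SE of 0.17 beside 0.36 and 0.48.

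**Figure D1:**
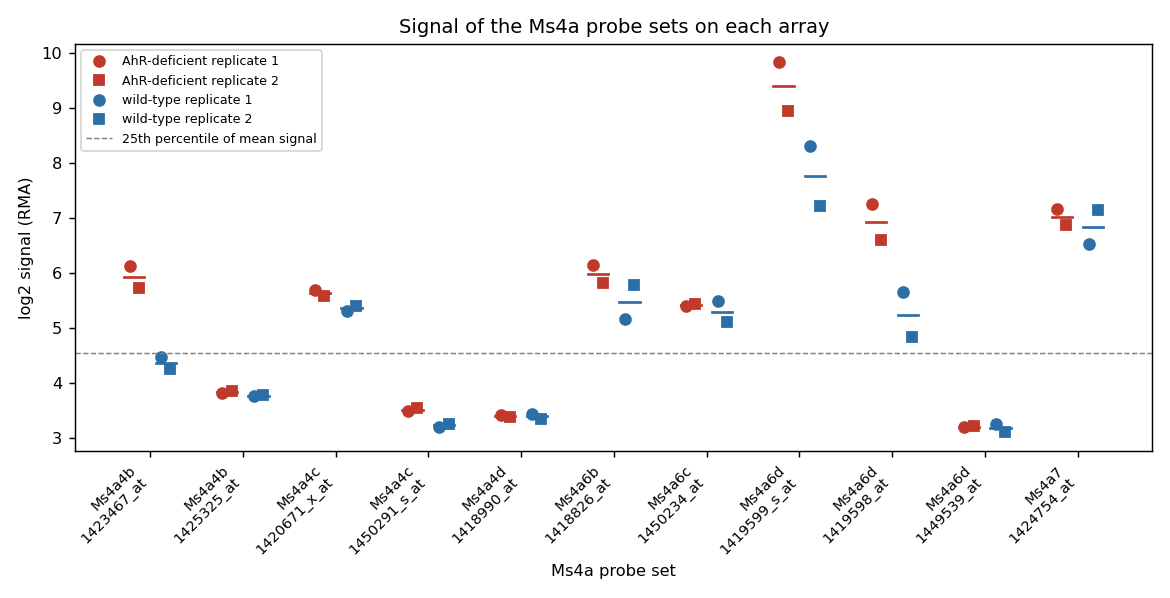
Log2 signal (RMA, vertical axis) of the 11 Ms4a probe sets (horizontal axis) on each array, with AhR-deficient arrays in red left of wild-type arrays in blue, circles for replicate 1, squares for replicate 2 and short bars for the mean of a genotype. Ms4a4b (1423467_at) and 2 Ms4a6d probe sets are separated by more than 1 log2 unit between genotype means, while 4 probe sets lie wholly below the dashed 25th percentile of mean signal.

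Ms4a4c, the paralogue next to Ms4a4b, had 5.69 and 5.59 in AhR-deficient cells, against 5.31 and 5.41 in wild-type cells, with probe set 1420671_x_at. The genotypes did not overlap, and the difference was 0.28 (SE 0.09). Probe set 1450291_s_at had 3.49 and 3.55 in AhR-deficient cells, against 3.21 and 3.26 in wild-type cells, and differed by 0.29 (SE 0.08) at dim signals. Both identifiers carry the Affymetrix suffixes for probes that can match more than 1 transcript, as does 1419599_s_at of Ms4a6d. Probe sequences were not used here, so how far Ms4a4c probes also read a paralogue such as Ms4a4b was not tested.

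Ms4a6b had 6.16 and 5.81 in AhR-deficient cells, against 5.17 and 5.78 in wild-type cells. The arrays did not overlap, but AhR-deficient replicate 2 and wild-type replicate 2 nearly met, and the difference of 0.51 (SE 0.25) was 0.21 when wild-type replicate 1 was left out and 0.81 when its fellow replicate 2 was left out. Ms4a6c, whose promoter resembles that of Ms4a6b, had 5.41 and 5.44 in AhR-deficient cells, against 5.48 and 5.12 in wild-type cells. These overlapped, and the difference was 0.12 (SE 0.15).

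Ms4a7, a gene of tissue macrophages, had 7.17 and 6.87 in AhR-deficient cells, against 6.53 and 7.15 in wild-type cells. The wild-type arrays enclosed the lower AhR-deficient value, and the difference was 0.18 (SE 0.25). Ms4a4d had 3.43 and 3.38 in AhR-deficient cells, against 3.43 and 3.36 in wild-type cells. It was dim on all 4 arrays and differed by 0.01 (SE 0.08).

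With the brightest probe set taken for each of the 7 genes, 4 were higher without overlap of the genotypes' arrays (Ms4a4b, Ms4a4c, Ms4a6b and Ms4a6d) and 0 were lower. Of all 12393 genes, 18.8% were higher and 16.6% lower in that way. Counted by probe set, 7 of the 11 were higher and 0 lower without overlap, beside 19.0% and 16.2% of all probe sets. The median difference of the members was 0.28, beside 0.0065 over all genes. Because the family was chosen on this contrast, nothing is read from these shares.

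In limma, 0 of the 11 probe sets passed an adjusted p of 0.05 (Benjamini-Hochberg over 22626 probe sets), where 0.0177% of all probe sets did. The smallest adjusted p among them was 0.310, for Ms4a4b. At an unadjusted p under 0.05 there were 5 of the 11, beside 6.00% of all probe sets. With each array left out in turn, Ms4a4b differed by 1.35 to 1.76 and the Ms4a6d probe set 1419599_s_at by 1.08 to 2.18, the lowest being without wild-type replicate 2, and that array also had the lowest Ms4a6d signal.

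**Figure D2:**
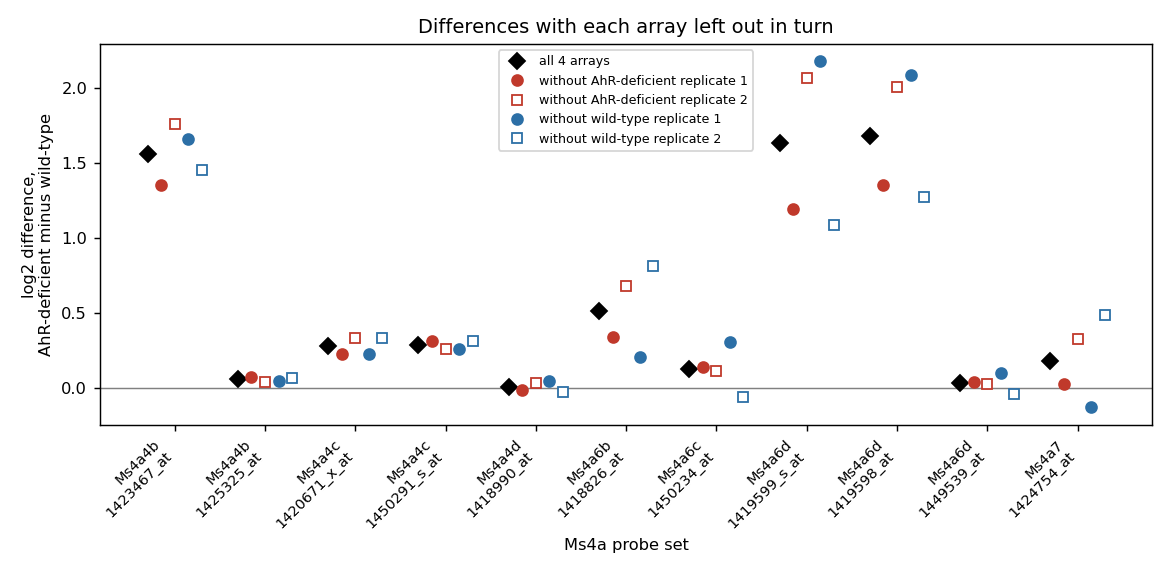
Log2 difference, AhR-deficient minus wild-type (vertical axis), for the 11 Ms4a probe sets (horizontal axis), from all 4 arrays (black diamonds) and with each array left out in turn (coloured symbols). Ms4a4b (1423467_at) and the brighter Ms4a6d probe sets stay above 1 with any array left out, while Ms4a4d, Ms4a6c, Ms4a7 and the dim Ms4a6d probe set fall on both sides of 0.

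The chromosome 19 cluster held 21 Ms4a genes in the RefSeq gene table (GRCm38.p6, used for names and gene order), of which 12 were measured. In gene order, Ms4a4c, Ms4a4b, Ms4a6c, Ms4a6b, Ms4a4d and Ms4a6d follow each other. The genes with differences above 2-fold were thus not neighbours, and Ms4a6c, Ms4a6b and Ms4a4d, with 0.12, 0.51 and 0.01, lie between them. This is a description of values side by side, since the differences between paralogues were not tested.

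The other measured Ms4a genes were 5 of 13 on the list. Ms4a1, the B cell antigen CD20, had 4.74 and 4.96 in AhR-deficient cells, against 4.92 and 4.88 in wild-type cells, and differed by -0.05 (SE 0.10). Ms4a2, the IgE receptor beta chain, had 4.99 on both AhR-deficient arrays, against 5.07 and 5.12 in wild-type cells, and differed by -0.11 (SE 0.07). Ms4a3, a gene of myeloid progenitors, Ms4a8a and Ms4a10 differed by 0.0041 (SE 0.17), 0.05 (SE 0.08) and 0.10 (SE 0.10). None of these 5 genes passed in limma, beside 0.0323% of all genes, and the lowest adjusted p was 0.899. At an unadjusted p under 0.05 there were 0, beside 6.54% of all genes.

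**Figure D3:**
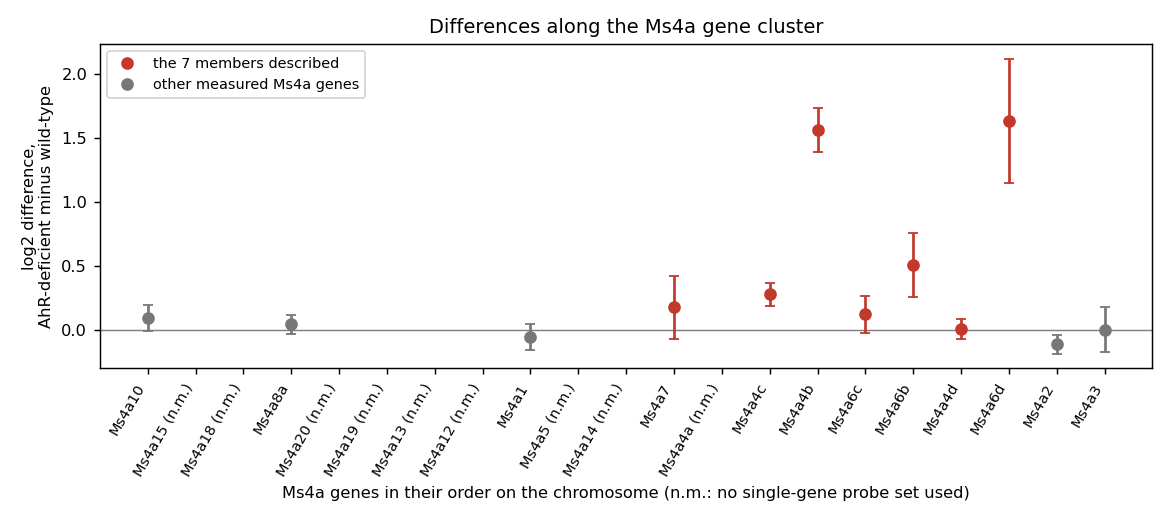
Log2 difference, AhR-deficient minus wild-type (vertical axis, points with SE bars, 2 arrays per genotype), for the measured Ms4a genes in their order on chromosome 19 (horizontal axis, ordinal positions), with the 7 members in red and the other measured genes in grey. Ms4a4b at 1.56 and Ms4a6d at 1.63 stand above the remaining 10 measured genes, whose values run from -0.11 to 0.51.

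Genes outside the family but next to it had smaller differences than Ms4a4b and Ms4a6d. The nearest measured genes on one side were Ccdc86, Ptgdr2, the receptor for prostaglandin D2, and Zp1, which differed by 0.23 (SE 0.10), -0.06 (SE 0.08) and -0.03 (SE 0.07). On the other side Oosp1, Cblif, which encodes the cobalamin binding intrinsic factor, and Mrpl16, a mitochondrial ribosomal protein, differed by -0.10 (SE 0.09), 0.08 (SE 0.11) and -0.02 (SE 0.07). AW112010, a transcript located among the Ms4a genes, was added after its values were seen. It had 6.44 and 7.51 in AhR-deficient cells, against 6.74 and 6.52 in wild-type cells. These overlapped, and the difference was 0.34 (SE 0.38).

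Tmem176a and Tmem176b are membrane proteins related to the family and encoded on another chromosome. With the brightest probe set of each, both were higher without overlap, as were 18.8% of all genes. Tmem176b had 10.79 and 10.40 in AhR-deficient cells, against 9.93 and 9.95 in wild-type cells, and differed by 0.65 (SE 0.15, limma adjusted p = 0.674). Tmem176a had 9.46 and 9.54 in AhR-deficient cells, against 8.89 and 9.15 in wild-type cells, and differed by 0.48 (SE 0.12, limma adjusted p = 0.697). A second Tmem176a probe set, with 9.03 and 8.52 in AhR-deficient cells, against 8.52 and 8.47 in wild-type cells, overlapped.

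Genes for known partners of MS4A proteins were measured as well. Tnfrsf18, which encodes GITR, had 5.54 and 5.64 in AhR-deficient cells, against 5.50 and 5.35 in wild-type cells, and differed by 0.16 (SE 0.10). Fcer1a and Fcer1g, the other chains of the IgE receptor, differed by 0.04 (SE 0.08) and -0.06 (SE 0.17). Clec7a, the receptor dectin-1, which binds MS4A4A in human macrophages, differed by 0.15 (SE 0.17). Trem2 and its adaptor Tyrobp, linked to the MS4A genes in human myeloid cells, differed by -0.03 (SE 0.10) and -0.02 (SE 0.31). Of the 6 listed genes, 2 were higher and 0 lower without overlap, beside 18.8% and 16.6% of all genes. In limma 0 passed, beside 0.0323% of all genes, and 0 had an unadjusted p under 0.05, beside 6.54%.

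Markers of cell types in which Ms4a genes are known were measured on the same arrays. Ms4a1 is itself on the B cell list, and Ms4a2 and the partner gene Fcer1a are on the mast cell list. Of 12 monocyte and macrophage markers measured (14 listed), 8 were higher and 2 lower without overlap, beside 18.8% and 16.6% of all genes, with a median difference of 0.70. They included Cd68, a lysosomal protein (1.12, SE 0.19), C1qb, a complement component, with 8.27 and 7.97 in AhR-deficient cells, against 6.61 and 7.32 in wild-type cells, and Pf4, a chemokine, with 7.26 and 6.41 in AhR-deficient cells, against 4.98 and 5.41 in wild-type cells. The genotypes did not overlap for either gene. Both had the lower of their wild-type values in replicate 1, as did Cd68, C1qa, C1qc and Ccr2 among the markers higher without overlap. The remaining ones, Cd14 (6.46 and 6.44 in wild-type cells) and Lyz2 (6.18 and 5.92), had it in replicate 2, as did Ms4a6d.

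The growth factor receptor Csf1r ran the other way, with 10.54 and 10.14 in AhR-deficient cells, against 11.07 and 11.70 in wild-type cells. Adgre1, a surface receptor of macrophages, differed by -0.89 (SE 0.39). Summed on the linear scale, the list had 3214 and 2357 in AhR-deficient cells, against 2894 and 4297 in wild-type cells, and these sums overlapped. Csf1r alone made up 1485 and 1126 of these sums in AhR-deficient cells, against 2157 and 3325 in wild-type cells. Without Csf1r, a choice made after its values were seen, the other 11 genes summed to 1729 and 1231 in AhR-deficient cells, against 738 and 972 in wild-type cells, which did not overlap. Whether Csf1r, Adgre1 and the other listed genes were expressed by the Langerhans cells themselves was not tested, so the list is not specific to macrophages here. In such bulk samples more cells of a type and more RNA per cell cannot be told apart, and the part of macrophage-type cells in the Ms4a6d value was not tested.

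T and NK cell markers were read beside Ms4a4b. Of 15 measured (16 listed), 1 was higher and 5 were lower without overlap, beside 18.8% and 16.6% of all genes, with a median of -0.06. Cd3g, a chain of the T cell receptor complex, had 4.52 and 4.26 in AhR-deficient cells, against 5.80 and 5.50 in wild-type cells, and Klrd1, an NK cell receptor chain, differed by -1.55 (SE 0.48). Cd3e had 6.71 and 7.03 in AhR-deficient cells, against 6.98 and 6.90 in wild-type cells. The summed linear signal of the list was 645 and 623 in AhR-deficient cells, against 947 and 736 in wild-type cells, which did not overlap. B cell markers (6 measured) had a median of -0.04, with -0.07 (SE 0.08) for Cd22 and 0.04 (SE 0.08) for Blk. Mast cell markers (7 measured) had a median of -0.01, with -0.01 (SE 0.09) for the tryptase Tpsb2 and -0.64 (SE 0.12) for the growth factor receptor Kit.

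Keratinocyte markers, of which 9 were measured, had a median of 0.57, with 5 higher and 0 lower without overlap, beside 18.8% and 16.6% of all genes, and the highest summed signal on AhR-deficient replicate 1 (862 and 418 in AhR-deficient cells, against 363 and 410 in wild-type cells). Lor, a protein of the cornified layer, differed by 0.81 (SE 0.62) and Krt5, a basal keratin, by 0.27 (SE 0.11). The cells were sorted as MHC class II-positive, and the part of any remaining keratinocytes in the Ms4a values was not tested.

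Of the 8 Langerhans cell markers, all measured, 4 were higher and 0 lower without overlap, beside 18.8% and 16.6% of all genes, with a median of 0.30. Cd207, the lectin langerin that marks Langerhans cells, lay far above the 75th percentile of every array, which ranged from 6.87 to 6.93, with 11.21 and 11.71 in AhR-deficient cells, against 11.00 and 12.06 in wild-type cells. H2-Aa, an MHC class II chain, had 12.47 and 12.32 in AhR-deficient cells, against 11.25 and 10.92 in wild-type cells. Cd74 and H2-Ab1, also of the MHC class II pathway, differed by 0.93 (SE 0.12) and 1.24 (SE 0.27), while the adhesion molecule Epcam differed by -0.32 (SE 0.19) and overlapped.

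**Figure D4:**
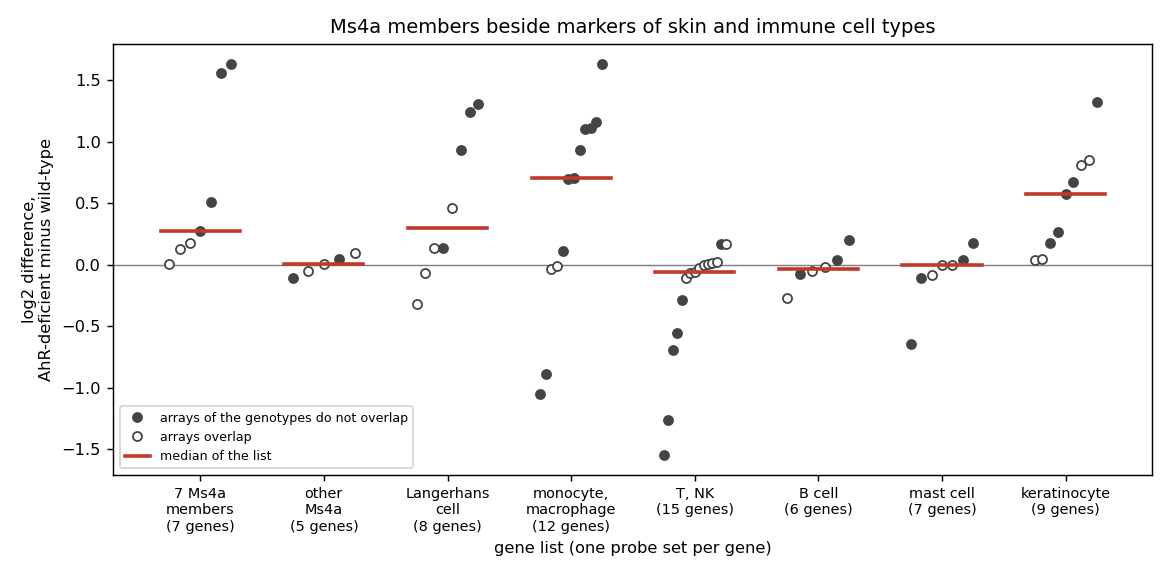
Log2 difference, AhR-deficient minus wild-type (vertical axis), of single genes (points) in the Ms4a members, the other Ms4a genes and 6 lists of cell type markers (horizontal axis), with a red bar at the median of each list and filled points where the arrays of the genotypes did not overlap. Monocyte and macrophage markers have a median of 0.70 and T and NK cell markers one of -0.06, beside 0.28 for the 7 members. Ms4a1 and Ms4a2 appear among the other Ms4a genes and again in the B cell and mast cell lists.

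As a sign of RNA quality, control probe sets at the 3′ end of a transcript were set against those at its 5′ end. For Actb the log2 difference of 3′ over 5′ signal was 2.34 and 2.61 in AhR-deficient cells, against 3.16 and 2.65 in wild-type cells, where the AhR-deficient values were lower without overlap. The same measure for Gapdh was 2.24 and 2.19 in AhR-deficient cells, against 2.60 and 1.97 in wild-type cells, which overlapped. Their part in the Ms4a values was not tested.

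The genes whose pattern over the 4 arrays was most like that of Ms4a4b were found by the Euclidean distance between log2 values after subtraction of each gene's own mean, over 12392 genes. They were Calcb, a calcitonin gene-related peptide (distance 0.11), the MHC class II gene H2-Eb1 (0.21), Mndal, of the interferon-inducible p200 family (0.23), H2-Aa (0.32) and Tcaf2, a regulator of TRP channels (0.32). Calcb, the nearest, had 6.59 and 6.16 in AhR-deficient cells, against 5.05 and 4.78 in wild-type cells. Within the family Ms4a6d was nearest to Ms4a4b, at rank 40 with a distance of 0.71, and Ms4a6b followed at rank 316 with 1.19. Ms4a4c, whose promoter is closest to that of Ms4a4b, stood at rank 661 with 1.32. With 4 arrays, these distances describe the order and size of values and carry no test.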

How the data were processed

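Langerhans cells of 2 AhR-deficient and 2 wild-type samples were measured on 4 arrays. The deposited values are log2 signals per probe set, made by the authors with affy and RMA per the submitters' processing notes; versions and the genome build are not given in the sources used here. Array medians ranged from 5.60 to 5.63, and no further scaling was applied. The table held 22690 probe sets, and its 64 Affymetrix controls were not tested. A single gene symbol was annotated for 20380 probe sets, more than 1 symbol for 691 and no symbol for 1555. Entrez identifiers matched 20351 of the first kind to RefSeq, and 0 symbols changed. Each gene was read from its brightest probe set (mean of all 4 arrays).

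The fit used limma 3.58.1 under R 4.3.3 (lmFit, eBayes, two-sided, prior degrees of freedom 2.27), with Benjamini-Hochberg adjustment over all probe sets and a threshold of 0.05. The steps were tested on simulated data. Precision is limited by the number of arrays (median SE 0.10). The members, gene lists and tests were chosen with earlier results of these data known. All members and the measured other Ms4a, Tmem176 and partner genes were named. So were the 3 nearest measured genes on each side of the cluster, the 5 genes most like Ms4a4b and the 2 brightest genes of each marker list. C1qa, C1qb, C1qc, Ccr2, Cd14, Lyz2, Pf4, Adgre1, Cd3g, Cd74, H2-Ab1, Epcam and AW112010 were added after their values were seen. The promoter windows were aligned with Biopython 1.88 (local alignment, match 2, mismatch -1, gap -4 and -0.5). Alternatives tried were robust eBayes, a trend in eBayes, a replicate block, leaving out probe sets under the 25th percentile, quantile normalization again, median centring, adding 16 on the linear scale, another choice of probe set per gene, and each array left out in turn.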

Additional observations from a re-analysis of the deposited data

How the results depend on the processing

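With all 4 arrays kept, the count of members higher without overlap stayed at 4, also among the 6 members left without dim probe sets. That filter used the mean of all 4 arrays. Ms4a4b passed it through its AhR-deficient mean of 5.93, since its wild-type mean of 4.37 lay below the cut-off of 4.56. Its place among the 6 is thus no support. The count was 3 of 6 when probe sets ending in _s_at, _x_at or _a_at were left out. Ms4a4c has only such probe sets and dropped out. With an array left out, 1 genotype has a single array and overlap is less likely, so that count is not compared. The members' median difference then ranged from 0.23 to 0.48, the highest without wild-type replicate 2. Other alternatives moved the median by less than the replicate spread of 0.15. With all 4 arrays and no block, none of the 11 probe sets passed an adjusted p of 0.05 in limma under any alternative. The lowest was 0.153, for Ms4a4b with a trend in eBayes. Of 128 recomputed differences, 6 changed sign, all in members with small differences: Ms4a4d (-0.0031 with arrays centred on the median, -0.029 to 0.046 with an array left out), Ms4a6c (-0.060 to 0.31), the Ms4a6d probe set 1449539_at (-0.042 to 0.10) and Ms4a7 (-0.13 to 0.48). Over all probe sets, 0 higher and 4 lower calls became 1 and 7 with a trend in eBayes. Adding 16 on the linear scale gave 0 lower. Calls with an array left out are not compared, since 1 genotype then has a single array. Replicate numbers are shared by the genotypes without a stated pairing, and same-numbered arrays deviated in opposite ways (r = -0.31 over probe sets). A replicate block gave 0 lower calls, as did the crossed pairing, added after the data were seen. Either block leaves fewer residual degrees of freedom than the 2 of the main fit, which makes calls harder to reach. The causes were not tested. Signals below the 25th percentile limit Ms4a4d and 3 further probe sets, as well as the wild-type values of Ms4a4b.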
